A study of Mus musculus with 4 samples.

Results

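Ccr7, Ccr4, Ccr9, Ccr8 and Cxcr4 encode chemokine receptors that place thymocytes in the cortex, bring them to the medulla and keep them there. These 5 genes were taken by name out of the 33696 genes of the matrices, where each had 1 row, and were followed through 6 states of thymocyte barcodes in 2 genotypes. The values come from droplet single-cell RNA sequencing of sorted mouse thymocytes with a 3' kit, with 1 expression library from Cd4Cre mice, called WT, and 1 from Cd4Cre Cgas fl/fl mice, called Cgas KO. Both groups carry the Cre transgene, whose Cd4 promoter acts in T-lineage thymocytes once they are double-positive, and the second lacks the DNA sensor cGAS in the cells where Cre has recombined. The labels used here do not state age, sex or the number of mice in a library. The series asks how cGAS affects transcription in these cells. The titles call the cells CD4+CCR7+, while the protocol names a sort for CCR7+ thymocytes, so CCR7 protein was itself a criterion of the gate, and the level of Ccr7 mRNA stands under that condition throughout.

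As background, CCR7 binds CCL19 and CCL21 of the medullary stroma and draws positively selected thymocytes out of the cortex. CCR4, which binds CCL17 and CCL22, appears early after positive selection and helps thymocytes meet medullary antigen-presenting cells. CCR9 binds CCL25 of thymic epithelium and is typical of double-positive and recently selected cells. CXCR4 binds CXCL12 and holds immature thymocytes in the cortex, and CCR8 is a receptor of CCL1 found on some maturing and regulatory T cells.

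A barcode was kept with at least 2000 unique molecular identifiers (UMIs), at least 500 genes and at most 10% mitochondrial UMIs. This left 12929 WT barcodes with 75001049 UMIs (median 4943 per barcode) and 14381 Cgas KO barcodes with 75605391 UMIs (median 4507). Levels are CPM, the UMIs of a gene scaled to 1000000 UMIs of the state in that library. Intervals are exact 95% intervals for counting error alone, and each genotype is a single library, so differences were described and none was tested. Between 7.06% and 7.97% of kept barcodes had no beta chain in the T cell receptor library, and 9.00% in WT and 9.58% in Cgas KO had at least 2; 276 barcode sequences were kept in both libraries. Cgas itself was at 4.49 CPM (337 UMIs) in WT and 2.92 CPM (221 UMIs) in Cgas KO; no source used here says whether its 3' reads lie outside the floxed exons, so this does not check the labels. Of the markers of other cell types, the erythroid sum was 2.75 CPM in WT and 60.4 in Cgas KO, the dendritic sum 182 and 166 CPM, and the B cell sum 66.1 and 81.2 CPM. The natural killer or innate lymphoid sum was 2.53 and 1.83 CPM, with Ncr1 at 0 in both, and the macrophage sum 3.76 and 0.582 CPM.

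Each barcode was given 1 state, by the first rule it met in a fixed order. Rag1+ barcodes (at least 1 UMI of Rag1, a recombinase gene of the double-positive stage) numbered 545 in WT and 501 in Cgas KO. Foxp3+ barcodes, with at least 1 UMI of the regulatory T cell factor, numbered 499 and 365. Cd8 lineage barcodes, with at least 2 UMIs of Cd8a and Cd8b1 and none of Cd4 and Zbtb7b, numbered 1327 and 1296, although the titles describe CD4+ cells. Nr4a1/Egr-high barcodes, the top 10% by UMIs of the T cell receptor-induced genes Nr4a1, Egr1, Egr2 and Egr3, numbered 1097 and 1294. S1pr1+ barcodes, with at least 1 UMI of the sphingosine phosphate receptor of thymic egress, numbered 3703 and 4214, and Itm2a+ S1pr1- barcodes, with the positive selection gene Itm2a and no S1pr1 UMI, 4873 and 5648. The remaining 885 and 1063 met no rule. The states are cut from the same counts as the receptors, so differences between them are described and not tested.

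The stretches before the annotated starts of Ccr4, Ccr9 and Cxcr4 are shown first, because these were the 3 receptors that differed most between Itm2a+ S1pr1- and S1pr1+ barcodes, Ccr4 and Ccr9 in one direction and Cxcr4 in the other. They are the 250 bases 5' of the start from RefSeq (GRCm38.p6), written on the gene's strand, with every CG pair in capitals. RefSeq windows were matched for 4 of the 5 genes; Ccr7 (chromosome 11) is named only.
Ccr4, chr9:114496545-114496794, minus strand: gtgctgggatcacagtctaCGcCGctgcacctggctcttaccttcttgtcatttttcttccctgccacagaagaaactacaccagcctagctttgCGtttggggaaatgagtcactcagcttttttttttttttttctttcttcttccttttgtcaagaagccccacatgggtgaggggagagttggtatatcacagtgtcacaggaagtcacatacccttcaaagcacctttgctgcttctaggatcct
Ccr9, chr9:123766961-123767210, plus strand: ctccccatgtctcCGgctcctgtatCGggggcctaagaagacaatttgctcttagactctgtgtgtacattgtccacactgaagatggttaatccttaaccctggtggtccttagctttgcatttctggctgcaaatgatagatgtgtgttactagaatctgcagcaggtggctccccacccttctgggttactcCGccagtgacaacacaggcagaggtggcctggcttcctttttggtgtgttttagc
Cxcr4, chr1:128592300-128592549, minus strand: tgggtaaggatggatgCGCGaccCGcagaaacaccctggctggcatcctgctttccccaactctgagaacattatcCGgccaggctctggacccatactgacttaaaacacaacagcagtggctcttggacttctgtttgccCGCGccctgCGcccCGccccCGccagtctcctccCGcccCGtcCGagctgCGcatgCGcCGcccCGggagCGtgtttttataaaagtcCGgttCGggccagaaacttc
The Ccr4 and Ccr9 stretches each hold 3 CG pairs, that of Ccr8 (chr9:120091883-120092132, plus strand) holds 1, and that of Cxcr4 holds 19. Ccr4, Ccr9 and Ccr8 all lie on chromosome 9 and Cxcr4 on chromosome 1. Over the whole RefSeq windows of 300 bases, which add the first 50 transcribed bases, the counts were 3, 4, 2 and 20, against a median of 7 over 32851 windows; 26.5% of windows hold at least as many as Cxcr4. The E-box letters CAGNTG were searched on both strands. The Ccr4 and Ccr9 windows each held 1 match, and 51.4% of all windows held at least 1. The letters TGANTCA, of the AP-1 family, matched once in the Ccr4 window and in 7.81% of all windows. Neither AAGGTCA of the NR4A family (4.72% of windows) nor GTGGGNG of the EGR family (31.6%) occurred in any of the 4. A match is a run of letters and no evidence of binding.

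Ccr7 was the most abundant of the receptors over all kept barcodes of both libraries, at 617 CPM in WT and 721 in Cgas KO. Its level was lowest in Rag1+ barcodes, at 283 CPM (265 to 303) in WT and 294 CPM (274 to 315) in Cgas KO. Itm2a+ S1pr1- barcodes stood at 580 and 648 CPM and S1pr1+ barcodes at 686 and 805 CPM. Thus the Rag1+ state, which holds the least mature cells, was lowest in both libraries, and the S1pr1+ state lay above the Itm2a+ S1pr1- state. Foxp3+ barcodes had 740 and 865 CPM, and Nr4a1/Egr-high barcodes the highest levels, 820 CPM (797 to 844) and 976 CPM (952 to 1001). The counting intervals of neighbouring states were apart in both orders, with 1 exception: in Cgas KO the Cd8 lineage (648 CPM) could not be told from Itm2a+ S1pr1- barcodes, whereas in WT the Cd8 lineage was lower, at 484 CPM against 580 CPM.

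After each barcode was thinned to 2000 UMIs at random, which removes differences in depth, 24.4% of Rag1+ barcodes had a Ccr7 UMI in WT and 25.7% in Cgas KO, against 63.3% and 69.5% of S1pr1+ barcodes (unthinned, 37.4% and 41.1% against 87.1% and 89.2%, at median depths of 3585, 4151, 4934 and 4642 UMIs). Ccr7 was unevenly spread among barcodes of a state. In thinned Nr4a1/Egr-high barcodes 43.1% in WT and 36.2% in Cgas KO had none, while 14.4% and 18.8% had at least 4 UMIs. The variance was 4.80 and 4.04 times the mean there, 3.53 and 3.59 times in Foxp3+ barcodes, and 2.55 and 2.68 times in S1pr1+ barcodes. The counting intervals used to set states apart do not take in this spread, so they are too narrow for variation among barcodes.

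Ccr4 was scarce, at 43.2 CPM in WT and 44.6 in Cgas KO over all kept barcodes, and its states fell into a high and a low group. Nr4a1/Egr-high barcodes stood at 66.2 CPM (59.8 to 73.1) and 74.3 CPM (67.7 to 81.4), Itm2a+ S1pr1- barcodes at 58.7 and 61.0 CPM, and the Cd8 lineage at 58.3 and 56.2 CPM. S1pr1+ barcodes held 20.03 and 20.4 CPM, Foxp3+ barcodes 20.8 and 24.3 CPM, and Rag1+ barcodes 24.7 and 13.4 CPM. No state of the low group reached the counting interval of any state of the high group in either library. Within the high group, the intervals of Itm2a+ S1pr1- and Cd8 lineage barcodes overlapped in both libraries, and within the low group in WT all 3 overlapped in sequence. Which state was lowest depended on the setting (S1pr1+, Foxp3+ or Rag1+). In thinned barcodes a Ccr4 UMI was found in 10.3% and 10.9% of Itm2a+ S1pr1- barcodes and in 3.35% and 3.18% of S1pr1+ barcodes (22.9%, 21.7%, 8.37% and 8.28% unthinned).

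Ccr9 had its highest levels in the Rag1+ and Cd8 lineage states. It stood at 484 CPM (460 to 509) in WT and 429 CPM (405 to 454) in Cgas KO in Rag1+ barcodes, and at 497 CPM (480 to 514) and 535 CPM (517 to 554) in the Cd8 lineage. These 2 states could not be told apart in WT, and with thinned barcodes Rag1+ was the higher in both libraries, at 661 and 626 CPM. Itm2a+ S1pr1- barcodes came next at 268 and 285 CPM and Nr4a1/Egr-high barcodes at 232 and 239 CPM. S1pr1+ barcodes (99.7 and 105 CPM) and Foxp3+ barcodes (117 and 99.9 CPM) were lowest, in either order. Thinned shares with a Ccr9 UMI ran from 63.1% and 56.1% in Rag1+ barcodes to 13.8% and 14.9% in S1pr1+ barcodes (83.1% and 77.8%, 28.4% and 29.0% unthinned). Summed double-positive markers (Rag1, Rag2, Dntt, Ptcra and Aqp11) stood at 92.1 and 90.0 CPM in the Cd8 lineage, which holds no Rag1 by rule. The sum was 1763 and 1752 CPM in Rag1+ barcodes and 32.3 and 34.1 CPM in Itm2a+ S1pr1- barcodes. The part of double-positive cells in the Ccr9 level of the Cd8 lineage was not tested.

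Ccr8 was at 165 CPM in WT and 134 in Cgas KO over all kept barcodes, and its highest and lowest states were 7.40-fold apart in WT and 7.32-fold in Cgas KO. Nr4a1/Egr-high barcodes led with 330 CPM (316 to 345) and 262 CPM (249 to 275), followed by Itm2a+ S1pr1- barcodes with 204 and 162 CPM. S1pr1+ barcodes (139 and 105 CPM) and Foxp3+ barcodes (128 and 107 CPM) had overlapping intervals in both libraries. Rag1+ barcodes held 59.6 and 53.6 CPM and the Cd8 lineage 44.7 CPM (39.8 to 49.9) and 35.8 CPM (31.2 to 40.8). Thinning brought Rag1+ barcodes of WT to 36.7 CPM (26.2 to 49.97), below the Cd8 lineage at 40.7 CPM (33.4 to 49.1), so which of these states was lowest depended on the setting. In thinned barcodes 33.3% and 28.5% of the Nr4a1/Egr-high state had a Ccr8 UMI, against 6.25% and 4.63% of the Cd8 lineage (49.2%, 42.1%, 13.2% and 10.3% unthinned), so Cd8 lineage barcodes were low in both Ccr8 measures while high in Ccr9.

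Cxcr4 was the least abundant, at 35.3 CPM in WT and 30.8 in Cgas KO. It was highest in Rag1+ barcodes, at 59.2 CPM (51.0 to 68.4) and 60.2 CPM (51.4 to 70.0). S1pr1+ barcodes stood at 46.6 and 43.9 CPM and Foxp3+ barcodes at 48.4 and 40.3 CPM, with overlapping intervals. The low states were Itm2a+ S1pr1- barcodes at 24.7 and 21.1 CPM, Nr4a1/Egr-high barcodes at 27.6 and 22.6 CPM and the Cd8 lineage at 33.3 and 19.9 CPM. Cxcr4 thus was high in the Rag1+ state and again in the S1pr1+ state. It was low in the Itm2a+ S1pr1- state, which lies between them in maturation. The lowest level was that of Itm2a+ S1pr1- barcodes in WT and of the Cd8 lineage in Cgas KO. In both libraries the interval of the lowest state overlapped that of the next. Which state was lowest depended on the setting (Itm2a+ S1pr1-, Nr4a1/Egr-high or Cd8 lineage). In thinned barcodes 11.2% and 13.4% of Rag1+, 4.80% and 3.75% of Itm2a+ S1pr1- and 9.21% and 8.83% of S1pr1+ barcodes had a UMI (24.4% and 24.8%, 11.7% and 9.65%, 22.01% and 19.3% unthinned).

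**Figure D1:**
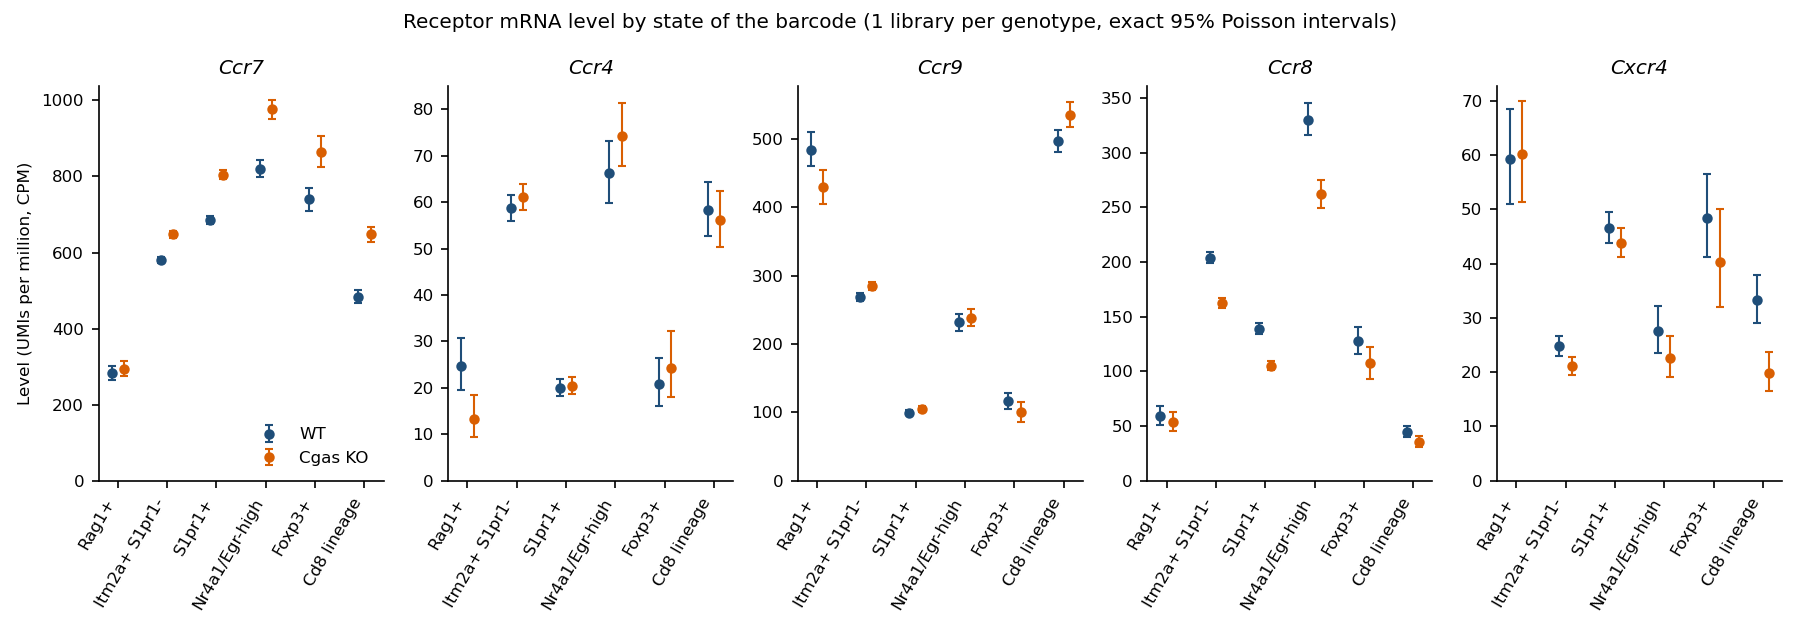
Level in CPM (y axis, starting at 0, scaled per gene) of each receptor in 6 states (x axis) in the WT and the Cgas KO library; points are 1 library each and bars exact 95% Poisson intervals. Ccr8 is highest in Nr4a1/Egr-high barcodes (330 and 262 CPM), Ccr9 is high in the Rag1+ and Cd8 lineage states, and Cxcr4 is highest in Rag1+ barcodes (59.2 and 60.2 CPM).

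RNA outside cells bears on each of these low shares. In barcodes of at least 20 and under 200 UMIs, which hold mainly RNA from the medium, Ccr7 stood at 766 CPM in WT and 963 in Cgas KO, Ccr4 at 57.4 and 60.6, Ccr9 at 274 and 295, Ccr8 at 244 and 174 and Cxcr4 at 44.2 and 33.3. Each was above its level over the kept barcodes. No state is known to lack any of the 5 genes, so no state gives the background. Even the lowest thinned share of a gene, such as 2.20% for Ccr4 in Rag1+ barcodes of Cgas KO, may hold expression, free RNA or both. The share of free RNA in the UMIs of each state was not estimated, and its part in the differences between states was not tested.

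Between Itm2a+ S1pr1- and S1pr1+ barcodes, the main step of CD4 maturation covered here, Cxcr4 was 1.88-fold (1.71 to 2.07) higher in S1pr1+ barcodes of WT and 2.08-fold (1.88 to 2.29) higher in Cgas KO. Ccr4 was at 0.341 (0.307 to 0.379) and 0.334 (0.301 to 0.369) of its Itm2a+ S1pr1- level, and Ccr9 at 0.372 (0.354 to 0.389) and 0.367 (0.351 to 0.384). Ccr8 was at 0.682 and 0.648, and Ccr7 at 1.18 and 1.24. With a difference of 1.5-fold the same way in both libraries as the limit, 1 of the 5 receptors was higher in S1pr1+ barcodes (Cxcr4), as were 3.49% of 12534 genes with at least 100 UMIs, and 2 were lower (Ccr4 and Ccr9), as were 3.73% of those genes. The mean log2 ratios of the 2 libraries were 0.28 for Ccr7, -1.57 for Ccr4, -1.44 for Ccr9, -0.59 for Ccr8 and 0.98 for Cxcr4, and the median over genes with at least 20 UMIs was -0.09.

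The step was finer when Itm2a and S1pr1 were read together in barcodes outside the other states. From barcodes with Itm2a alone, through those with both, to those with S1pr1 alone, Ccr4 stood at 58.7, 22.4 and 10.1 CPM in WT and at 61.0, 23.5 and 7.81 CPM in Cgas KO. Ccr9 stood at 268, 109 and 61.3 CPM in WT and at 285, 112 and 74.7 CPM in Cgas KO. Both receptors were lower at each step, and the counting intervals were apart. Ccr8 went from 204 to 148 and 101 CPM in WT and from 162 to 112 and 79.5 CPM in Cgas KO. Cxcr4 was at 24.7, 45.9 and 49.8 CPM in WT and at 21.1, 43.2 and 46.6 CPM in Cgas KO, so its difference lay at the first step, and the last pair of intervals overlapped. Ccr7 peaked in barcodes with both genes, at 708 and 812 CPM; barcodes with S1pr1 alone had 593 and 774 CPM. Median depth was lower in barcodes with S1pr1 alone (4195 and 3902 UMIs) than in those with both (5273 and 5010 UMIs).

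**Figure D2:**
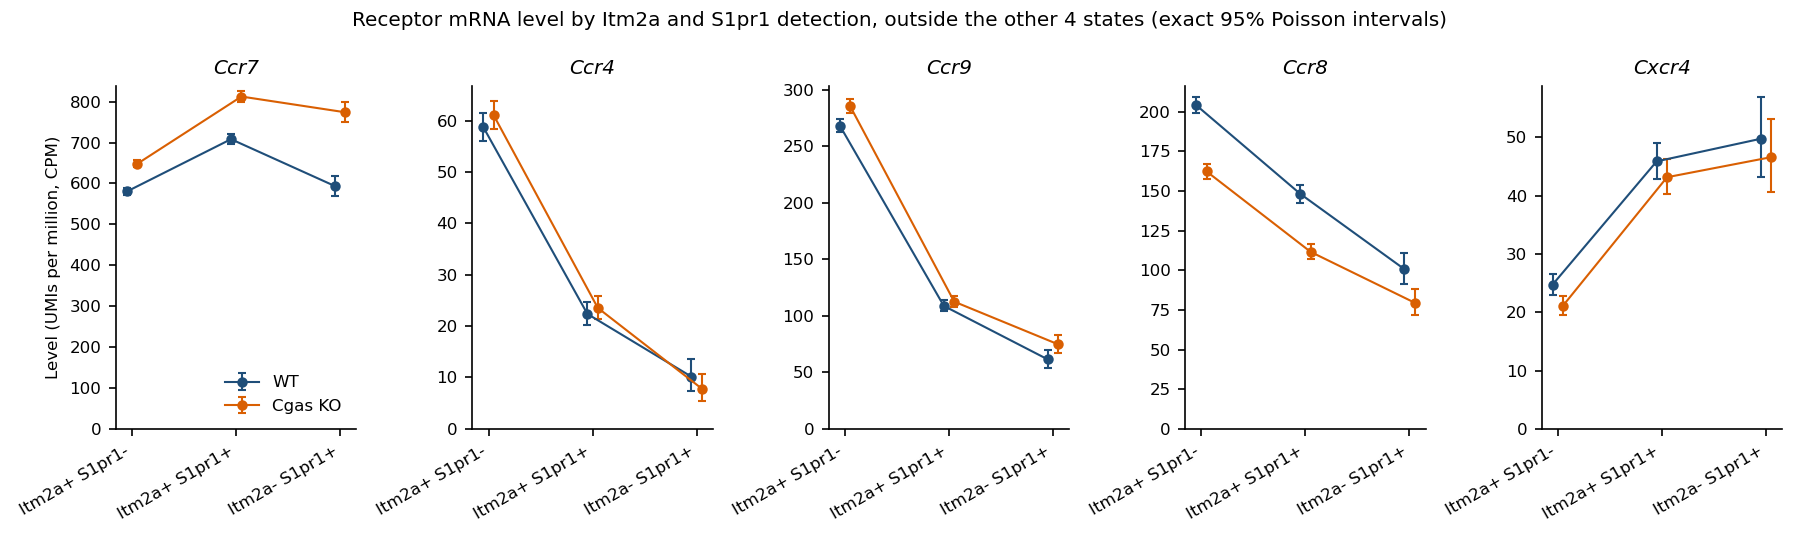
Level in CPM (y axis, starting at 0, scaled per gene) in barcodes with Itm2a alone, with Itm2a and S1pr1 and with S1pr1 alone (x axis), outside the Rag1+, Foxp3+, Cd8 lineage and Nr4a1/Egr-high states; bars are exact 95% Poisson intervals and lines join values of 1 library. Ccr4 drops from 58.7 to 10.1 CPM in WT and from 61.0 to 7.81 CPM in Cgas KO, while Cxcr4 is higher in both S1pr1+ classes.

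Against Itm2a+ S1pr1- barcodes, the Cd8 lineage had 1.85-fold and 1.88-fold the Ccr9 level and 0.219 and 0.220 of the Ccr8 level, so 1 receptor was higher and 1 lower by the same limit, as were 3.45% and 5.88% of 11937 genes. Foxp3+ barcodes were near the S1pr1+ state in all 5 receptors, with ratios from 0.917 to 1.196 and none past 1.5-fold, against 3.44% of 11206 genes higher and 2.08% lower. The Foxp3+ rule came before the S1pr1+ rule, and 347 of 499 and 246 of 365 Foxp3+ barcodes had an S1pr1 UMI. The part of this in the closeness of the 2 states was not tested.

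The split by S1pr1 was made inside the other states too. In the Cd8 lineage, barcodes with S1pr1 (122 in each library) had 31.4 and 32.7 CPM of Ccr4 against 63.2 and 65.9 CPM in those with Itm2a and no S1pr1, ratios of 0.497 and 0.496. Ccr9 there was at 0.584 and 0.594 of the Itm2a level, and Cxcr4 at 2.06-fold and 1.74-fold. Cxcr4 did not follow this in every state: it was 1.94-fold (1.35 to 2.77) in Nr4a1/Egr-high barcodes of Cgas KO, but the intervals included 1 in those of WT (1.23, 0.854 to 1.74), in Foxp3+ barcodes (1.14 and 1.15) and in Rag1+ barcodes (1.18 and 0.615). In Foxp3+ barcodes Ccr4 was at 0.366 and 0.506 and Ccr9 at 0.592 and 0.605. Lower Ccr4 and Ccr9 with S1pr1 was therefore seen in Cd8 lineage, Foxp3+ and Nr4a1/Egr-high barcodes of both libraries, with intervals below 1 in each; in Rag1+ barcodes the ratios were also below 1, with the interval reaching 1 for Ccr4 (0.641 and 0.423). Nor was Ccr8 lower with S1pr1 in every state. In the Cd8 lineage it was 51.8 and 51.4 CPM in WT, a ratio of 1.01 (0.695 to 1.43), and 41.8 and 42.4 CPM in Cgas KO, the ratio being 0.986 (0.653 to 1.45). In Nr4a1/Egr-high barcodes Ccr8 was 332 CPM with S1pr1 and 333 CPM without in WT, but 175 and 297 CPM in Cgas KO (0.587, 0.515 to 0.668). In Foxp3+ barcodes the libraries stood the other way round for Ccr8, with 0.494 (0.402 to 0.609) in WT and 0.898 (0.661 to 1.23) in Cgas KO. Whether the libraries differ in these ratios was not tested.

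From Rag1+ to Itm2a+ S1pr1- barcodes, Ccr7, Ccr4 and Ccr8 were at least 1.5-fold higher in the later state in both libraries, and Ccr9 and Cxcr4 at least 1.5-fold lower. Of all genes tested, 6.27% were lower and 10.6% higher in Rag1+ barcodes by that limit. Rag1+ barcodes held 0.488 and 0.454 of the Ccr7 level, 0.292 and 0.330 of the Ccr8 level, 1.81-fold and 1.504-fold of the Ccr9 level and 2.39-fold and 2.85-fold of the Cxcr4 level. The Rag1+ state had the most barcodes with at least 2 beta chains, 15.6% and 18.0%, and its summed B cell markers stood at 268 and 290 CPM, with Ms4a1 at 0; their part in these levels was not tested. The state also held cycling cells: 66 and 102 of its barcodes had at least 2 UMIs of the proliferation genes Mki67 and Top2a. In those, Ccr9 was 258 and 201 CPM, against 595 and 615 CPM in Rag1+ barcodes with no such UMI, and Ccr7 was 193 and 143 CPM against 306 and 379 CPM. Cxcr4 was 67.2 and 68.1 CPM in the cycling barcodes and 57.4 and 51.4 CPM in the others, with overlapping intervals. The cycling barcodes were deeper (medians of 11928 and 8535 UMIs against 3105 and 3179), which weights CPM of the whole state towards them.

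In the Itm2a+ S1pr1- state cycling barcodes were also lower in Ccr9, whereas Ccr7, lower in cycling Rag1+ barcodes, had overlapping intervals here. Ccr9 was 137 and 124 CPM in the 337 and 395 barcodes with at least 2 Mki67 and Top2a UMIs, against 290 and 313 CPM in those with none. Ccr4 was 34.8 and 24.0 CPM against 62.5 and 66.7 CPM. Cxcr4 was 41.0 and 39.6 CPM against 22.6 and 18.6 CPM, and Ccr7, at 577 against 583 CPM in WT and 624 against 654 CPM in Cgas KO, had overlapping intervals in both libraries. Ccr8 was 189 against 203 CPM in WT, with overlapping intervals, and 114 against 168 CPM in Cgas KO. In cycling Rag1+ barcodes Ccr8 was 30.4 and 28.5 CPM, against 64.5 and 58.1 CPM in those with no such UMI. Thus Ccr4 and Ccr9 were lower and Cxcr4 higher in cycling barcodes of the Itm2a+ S1pr1- state in both libraries. Cycling barcodes were deeper here too (medians of 10848 and 10001 UMIs against 5101 and 4568). The part of depth in these differences was not tested.

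T cell receptor-induced genes sorted the receptors differently. Barcodes outside the Rag1+, Foxp3+ and Cd8 lineage states were put in 5 classes by the UMIs of Nr4a1, Egr1, Egr2 and Egr3 per 10000, those with none and 4 classes of about equal size of those with any. Ccr8 was higher in each class than in the one before, from 133 to 319 CPM in WT and from 114 to 248 CPM in Cgas KO. Intervals overlapped between the middle class and the one above it in WT (193 and 209 CPM). In Cgas KO they overlapped between the class next to none and the middle class (127 and 131 CPM). Ccr4 went from 33.9 to 66.7 CPM and from 33.0 to 73.0 CPM, and Ccr7 from 575 to 810 CPM and from 668 to 968 CPM, although the class next to none was no higher than it for Ccr7. That class was also the deepest, with medians of 5986 and 5868 UMIs, against 4687 and 4233 in the class with none. The part of depth in the differences between classes was not tested. Ccr9 differed less, from 192 to 237 CPM and from 197 to 237 CPM. Cxcr4 was 33.1 CPM at the bottom and 29.9 CPM at the top in WT and 29.4 and 25.6 CPM in Cgas KO, with overlapping intervals in both. In between it was not flat. It reached 38.4 CPM (34.5 to 42.5) in the class next below the top in WT. In Cgas KO the middle class was highest, at 36.6 CPM (32.9 to 40.5). Both intervals lay above that of the top class of the same library. Compared with Itm2a+ S1pr1- barcodes, the Nr4a1/Egr-high state had 1.62-fold and 1.61-fold the Ccr8 level, the single receptor past 1.5-fold in both libraries (2.12% of 11902 genes were). Ccr7 was 1.41-fold and 1.51-fold.

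**Figure D3:**
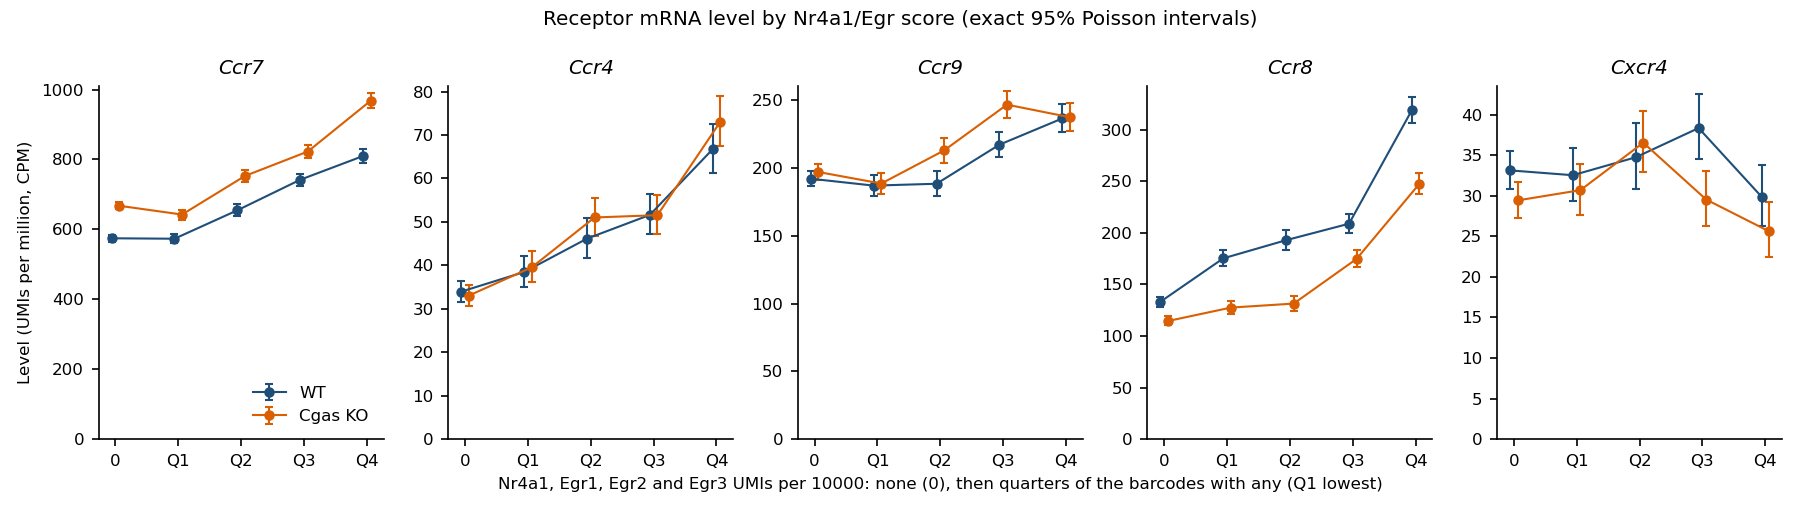
Level in CPM (y axis, starting at 0, scaled per gene) by class of Nr4a1/Egr score (x axis: 0 for no UMI, then Q1 to Q4 from the lowest to the highest scores) outside the Rag1+, Foxp3+ and Cd8 lineage states; bars are exact 95% Poisson intervals and lines join values of 1 library. Ccr8 is highest in the top class, at 319 CPM in WT and 248 in Cgas KO, and the Cgas KO line lies below the WT line in all 5 classes.

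Joint detection was read in thinned barcodes. Among Itm2a+ S1pr1- barcodes, a Ccr4 UMI was found in 13.9% (12.3% to 15.6%) of those with a Ccr9 UMI and 8.28% (7.34% to 9.30%) of those without in WT, and in 15.5% and 8.01% in Cgas KO. Both receptors occurred together 1.35 and 1.43 times as often as the product of their shares gives. Among Rag1+ barcodes, Ccr7 and Ccr9 went apart: 16.6% (12.8% to 20.9%) of those with a Ccr9 UMI had a Ccr7 UMI in WT, against 37.8% (31.1% to 44.9%) of those without, and 19.9% against 33.2% in Cgas KO. Ccr8 and Ccr9 were found together in Itm2a+ S1pr1- barcodes at 0.969 of the product in each library, with intervals that include 1. In the cycling barcodes of the Rag1+ state both Ccr7 and Ccr9 were low, as given above. Cells of 1 library are no replicates, and these shares were not tested.

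Across the 12 points of 6 states and 2 libraries, log2 levels of Ccr4 and Cxcr4 were opposed (Pearson r = -0.91), and Ccr7 and Ccr9 had r = -0.65; the points share 2 libraries and the cycling and depth differences between states. Among 9426 genes with at least 500 UMIs, those most like Ccr8 were Mapk11, Sytl2, Rcan3, Ube2j1 and Ptgir (r from 0.956 to 0.968). Those most like Ccr9 were Sdhb, Aldh7a1, Puf60, Abi3 and Nedd4 (0.974 to 0.985). Ccr4 was nearest to Trp53, Slc7a6, Ppan, Slc27a1 and Pfn1 (0.959 to 0.974), Ccr7 to Zhx2, Ndfip1, Utrn, Gpr174 and Gas5 (0.940 to 0.945), and Cxcr4 to Trip11, Kctd2, Il17ra and Zfp7 (0.918 to 0.957).

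Between the genotypes, Ccr8 was lower and Ccr7 higher in the Cgas KO library over all kept barcodes, while the ratios farthest from 1 were those of Ccr4 in Rag1+ barcodes and Cxcr4 in the Cd8 lineage, both from few UMIs. Over all kept barcodes Ccr8 went from 165 CPM in WT to 134 CPM, and its ratio was 0.809 (0.788 to 0.831). Ccr7 was at 617 and 721 CPM, a ratio of 1.17 (1.15 to 1.18). Cxcr4 was at 35.3 and 30.8 CPM, a ratio of 0.873 (0.825 to 0.923). Ccr4 (1.03, 0.984 to 1.08) and Ccr9 (1.03, 1.01 to 1.05) lay near 1. With 1.2-fold as the limit, 1 of the 5 receptors was lower (Ccr8), as were 5.83% of 13266 genes, and 0 were higher, as were 6.07%; the median ratio over these genes was 1.001. The ratio of Ccr7 exceeded that of all but 7.72% of genes.

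By state, the Ccr8 ratio was below 1 in 6 of 6 states, from 0.756 (0.716 to 0.797) in S1pr1+ barcodes to 0.901 (0.721 to 1.12) in Rag1+ barcodes. It was past 1.2-fold in 4 of them: S1pr1+ (5.43% of genes were that much lower), Itm2a+ S1pr1- (0.795; 4.95%), Nr4a1/Egr-high (0.793; 8.11%) and Cd8 lineage (0.801; 7.62%). In the barcodes that met no rule it was 1.07 (0.921 to 1.23). The erythroid marker sum differed most in the S1pr1+ state, at 2.16 CPM in WT and 184 in Cgas KO (4322 of the library's 4570 erythroid UMIs), and its part in the S1pr1+ ratios of the receptors was not tested. With thinned barcodes the ratios in Rag1+ and Foxp3+ barcodes were 1.06 and 1.01, with intervals from 0.665 to 1.69 and from 0.741 to 1.36, so no direction was held there. Free RNA of Ccr8, at 244 and 174 CPM, differed the same way as in cells. Taking 10% of the UMIs of each barcode as such RNA and removing them gave a ratio of 0.826 over all kept barcodes, and giving both libraries the same mix of states gave 0.795.

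The Ccr7 ratio was above 1 in 6 of 6 states, from 1.04 (0.943 to 1.14) in Rag1+ barcodes to 1.34 (1.28 to 1.40) in the Cd8 lineage, the single one of the 6 past 1.2-fold (7.82% of genes were that much higher there). Barcodes that met no rule had 1.22 (1.15 to 1.29), where 8.91% of genes were that much higher and 9.4% lower. In the other states the share of genes at least 1.2-fold higher was 12.6% in Rag1+, 9.9% in Foxp3+, 7.04% in Nr4a1/Egr-high, 5.94% in S1pr1+ and 6.11% in Itm2a+ S1pr1- barcodes, and none of the 5 receptors was among them. In the Cd8 lineage the thinned share of barcodes with a Ccr7 UMI was 43.7% in WT and 53.5% in Cgas KO. In Rag1+ barcodes the ratio was 0.920 (0.817 to 1.04) without barcodes of at least 2 beta chains and 1.22 (1.10 to 1.36) without cycling barcodes, so it has no settled direction. Because the cells were sorted for CCR7 protein, a difference in the gate between the sorts and a difference in Ccr7 transcription cannot be told apart. Free RNA of Ccr7 stood at 766 and 963 CPM, higher in Cgas KO as in the cells, and the ratio over all kept barcodes was 1.16 with 10% of UMIs removed as free RNA. The 22 WT and 25 Cgas KO barcodes with at least 20 UMIs of dendritic cell markers, cells that also express Ccr7, held 0.408% and 0.178% of its UMIs, and without them the ratio was 1.17.

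Cxcr4 was lower in Cgas KO in 5 of 6 states and past 1.2-fold in 3. In the Cd8 lineage 231 UMIs (33.3 CPM) were counted in WT and 123 UMIs (19.9 CPM) in Cgas KO. The ratio was 0.598 (0.477 to 0.748), where 7.62% of genes were lower by that limit. The other 2 had intervals that include 1: Nr4a1/Egr-high barcodes (0.820, 0.650 to 1.03, 8.11% of genes) and Foxp3+ barcodes (0.832, 0.628 to 1.09, 11.1%). Short of the limit, the ratio was 0.854 (0.767 to 0.950) in Itm2a+ S1pr1- barcodes and 0.941 (0.862 to 1.03) in S1pr1+ barcodes. In Rag1+ barcodes it was 1.02. In the Cd8 lineage the ratio ran from 0.581 to 0.621 with thinning, without barcodes of 2 or more beta chains and without cycling barcodes. The Cd8 lineage thus held both the largest Ccr7 ratio and the lowest Cxcr4 ratio of the states.

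Ccr4 was past 1.2-fold in 1 state. In Rag1+ barcodes 77 UMIs (24.7 CPM) were counted in WT and 37 (13.4 CPM) in Cgas KO, with a ratio of 0.544 (0.357 to 0.815), where 13.5% of genes were lower by that limit. Without cycling barcodes it was 0.886 (0.560 to 1.39), and in cycling Rag1+ barcodes Ccr4 was 27.1 CPM (25 UMIs) and 1.84 CPM (2 UMIs). Ccr9 was past 1.2-fold in no state, from 0.856 (0.718 to 1.02) in Foxp3+ barcodes to 1.08 (1.03 to 1.13) in the Cd8 lineage.

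**Figure D4:**
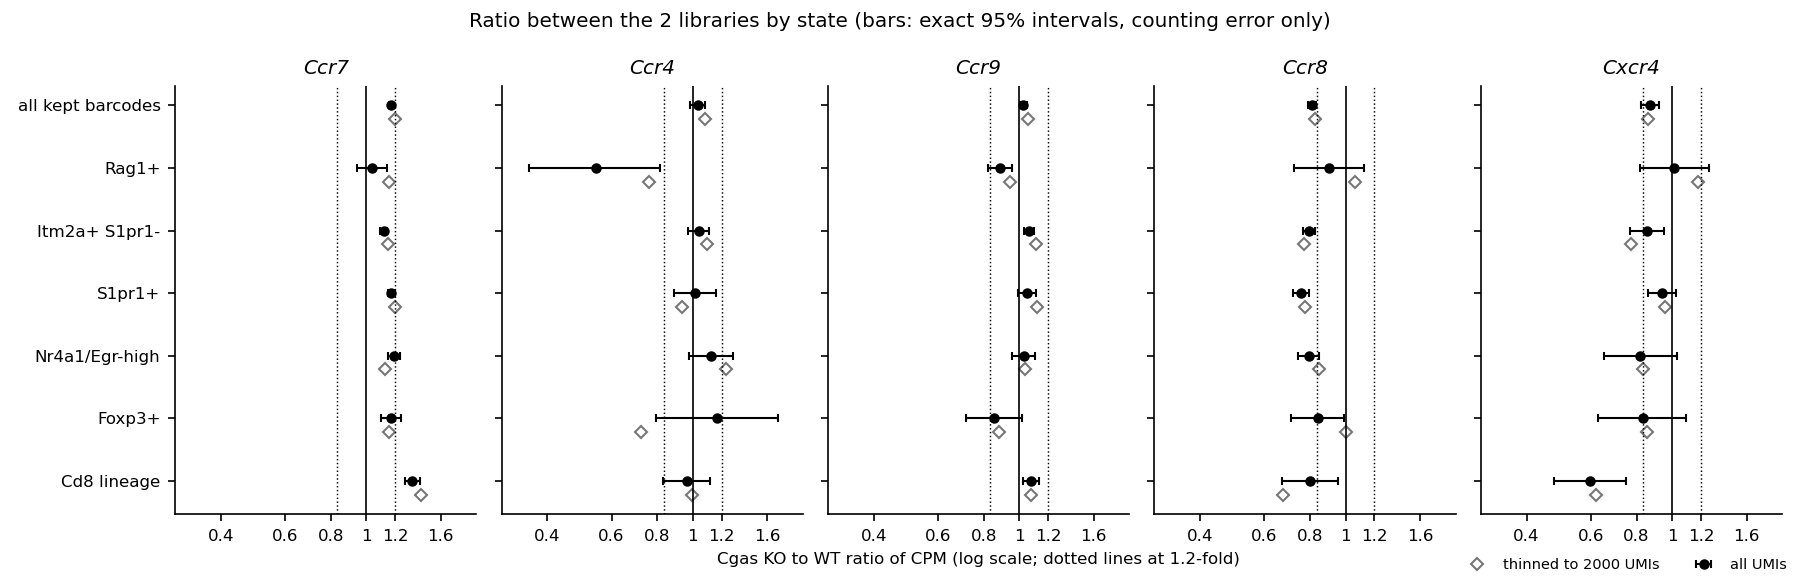
Ratio of Cgas KO to WT CPM (x axis, log scale) of each receptor over all kept barcodes and in 6 states (y axis); filled points with bars are ratios with exact 95% intervals for counting error, open diamonds the ratios after thinning to 2000 UMIs, and dotted lines mark 1.2-fold. Ccr8 lies below 1 in each state with all UMIs but reaches 1.06 and 1.01 in Rag1+ and Foxp3+ barcodes when thinned, and Ccr7 is farthest from 1 in the Cd8 lineage (1.34).

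Genes that work with these receptors were read from lists, with members of at least 20 UMIs counted as measured. Of 18 other chemokine receptors 11 were measured, all scarce, and 3 (Cxcr3, Ccr10 and Cxcr5) were at least 1.5-fold higher in S1pr1+ than in Itm2a+ S1pr1- barcodes in both libraries (4.26% of all genes of that depth). Cxcr5, the receptor of B cell follicles, was at 1.98 and 1.58 CPM in S1pr1+ barcodes and 0.873 and 0.842 CPM in Itm2a+ S1pr1- barcodes. Between genotypes 5 of the 11 (Ccr6, Ccrl2, Cxcr3, Cx3cr1 and Ackr4) were at least 1.2-fold lower in Cgas KO and 1 (Cxcr2, 2 UMIs against 25) higher, as were 10.9% and 10.9% of all genes of that depth. Among the lower ones Cx3cr1, the fractalkine receptor, was at 6.39 and 5.03 CPM and Ackr4, a scavenger of CCR7 and CCR9 ligands, at 1.61 and 1.11 CPM. The median log2 ratio of the list was -0.16, against 0.00 over all genes.

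Of 18 chemokine ligands 7 were measured in the stage comparison and 5 (Xcl1, Ccl5, Ccl4, Ccl22 and Cxcl16) were lower and 0 higher in S1pr1+ barcodes, against 5.46% and 4.26% of all genes of that depth, with a median log2 ratio of -1.26. Xcl1, a chemokine that attracts cross-presenting dendritic cells, was at 1.71 and 1.24 CPM in S1pr1+ barcodes against 5.64 and 11.8 CPM, and Ccl5, typical of effector lymphocytes, at 5.67 and 3.83 against 11.7 and 14.0 CPM. Ccl25, the CCR9 ligand made by thymic epithelium, was counted at 24.9 and 26.8 CPM over all kept barcodes and between 19.2 and 28.8 CPM in the 6 states. Between genotypes 2 of 8 ligands (Ccl4, and Ccl1 with 3 UMIs against 22) were higher and 1 (Ccl5) lower in Cgas KO, against 10.9% of all genes in each direction; Ccl4 was 3.73 and 5.61 CPM and Ccl5 13.9 and 9.18 CPM.

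Of 46 genes for receptor signalling and adhesion, 45 were measured, and 1 was higher and 0 lower in S1pr1+ barcodes, shares below the 4.26% and 5.46% of all genes; the median log2 ratio was 0.02. The 1 was Rgs1, a brake on chemokine receptor G proteins, at 69.1 and 50.8 CPM against 36.0 and 31.1 CPM; it was highest in Foxp3+ barcodes, at 189 and 168 CPM. Rgs2, of the same family, was 106 and 117 CPM against 153 and 166 CPM. Between genotypes 3 of the 45 (Rgs1, Rgs16 and Pik3cg) were lower in Cgas KO and 0 higher, shares below the 10.9% of all genes in each direction. Of 25 egress and guidance genes 24 were counted, as S1pr1 defines the states, with 8 higher, 3 lower (Plxnd1, Itgb1 and Robo1) and a median log2 ratio of 0.23, against 4.26% of all genes higher and 5.46% lower. S1pr4, a further sphingosine phosphate receptor, was 103 and 103 CPM against 33.6 and 34.5 CPM. Klf2, an activator of S1pr1, was 1411 and 1561 CPM against 694 and 749 CPM, and Robo1, a guidance receptor, 4.68 and 3.28 against 13.8 and 8.39 CPM. Between genotypes 1 of the 24 (Slit1, 10 UMIs against 19) was higher and 2 (Cd44 and Robo1) were lower in Cgas KO, shares below the 10.9% of all genes in each direction. The genes named in parentheses in these lists were named because their counts were small, after their values were seen.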

How the data were processed

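The authors deposited UMI counts per gene and barcode; per the file headers the software was Cell Ranger 8.0.1. In contrast, version 7.0 is listed in the submitters' processing notes, along with the mm10 build and Seurat 5.1.0, and this difference is unresolved. The deposited matrices were not filtered for cells (588428 barcodes in WT, 586687 in Cgas KO). T cell receptor contigs served only to find barcodes with at least 2 productive beta chains; no doublet caller was run.

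Kept barcodes held 75001049 UMIs in WT and 75605391 in Cgas KO. UMIs were summed per state and library and scaled to CPM with pandas 2.3.3, numpy 2.4.6 and scipy 1.17.1 (Python 3.11.15). Intervals were exact Poisson for levels, Clopper-Pearson for shares and conditional binomial for ratios, and they cover counting error only. Those for ratios were checked on simulated Poisson sums, which lack the spread among barcodes seen in these data. No test was made, as each genotype is 1 library and the states come from the same counts. TMM factors (edgeR 4.0.16, R 4.3.3) were an alternative scaling.

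Shares of genes beside the receptors' counts are over genes with at least 100 UMIs. Named list genes were up to 6 per list with the largest mean log2 ratio between S1pr1+ and Itm2a+ S1pr1- barcodes and at least 100 UMIs, and 5 genes per receptor of most similar log2(CPM + 1) pattern among genes with at least 500 UMIs. A few genes that these rules name are not reported here. The receptors and lists were chosen with earlier results of these data known.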

Additional observations from a re-analysis of the deposited data

Results flagged for a closer look

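Ccr9 differed between the libraries in opposite directions in different states, with counting intervals on either side of 1. Its Cgas KO to WT ratio was 0.886 (0.820 to 0.956) in Rag1+ barcodes, 1.08 (1.03 to 1.13) in the Cd8 lineage and 1.06 (1.03 to 1.10) in Itm2a+ S1pr1- barcodes. The difference between these ratios was not tested. In Rag1+ barcodes the ratio was 0.947 after thinning, 0.937 without barcodes of at least 2 beta chains and 0.997 without cycling barcodes, each with an interval that includes 1. Cycling barcodes, low in Ccr9, were 66 of 545 Rag1+ barcodes in WT and 102 of 501 in Cgas KO. In the Cd8 lineage the same 3 alternatives gave 1.08, 1.09 and 1.10.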

How the results depend on the processing

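No paired analysis was possible because each genotype has 1 expression library. For the same reason no library could be left out. No ratio over all kept barcodes and no ratio between S1pr1+ and Itm2a+ S1pr1- barcodes changed direction under the alternatives tried. Over all kept barcodes, 58 of 60 genotype ratios stayed within the counting interval; the others came from thinning, with 1.198 for Ccr7 and 1.06 for Ccr9. The log2 ratio of S1pr1+ to Itm2a+ S1pr1- barcodes after thinning was 0.31 for Ccr7, -1.82 for Ccr4, -1.70 for Ccr9 and 1.09 for Cxcr4. With 2 UMIs of Itm2a or S1pr1 required it was 0.36 for Ccr7, -1.95 for Ccr4, -1.68 for Ccr9, -0.70 for Ccr8 and 1.16 for Cxcr4. Without barcodes of at least 2 beta chains it was -1.74 for Ccr4, -1.61 for Ccr9 and -0.64 for Ccr8. With overlapping states it was -0.54 for Ccr8, and on a total without mitochondrial and ribosomal protein genes 0.31 for Ccr7. The cause of these shifts was not tested. Of 240 levels under alternative states or thinning, 181 stayed within the counting interval, and 34 of the other 59 came from thinning. Of 90 genotype ratios by state, 14 left the interval, and several in the Rag1+ and Foxp3+ states crossed 1: those of Ccr7 and Ccr8 stand with the results, and Ccr4 in Foxp3+ barcodes was 1.17 with all UMIs and 0.724 (0.284 to 1.72) after thinning. The alternatives for ratios by state, free RNA, dendritic-marker barcodes and an equal mix of states were chosen after seeing the data. Depth limits Ccr4 and Cxcr4 most, in the Rag1+ and Foxp3+ states above all, where a library holds 37 to 185 UMIs of either.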
